A study of Mus musculus with 16 samples.

Results

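The Kruppel-like factors described here are 10 transcription factor genes (Klf2, Klf3, Klf4, Klf6, Klf7, Klf9, Klf10, Klf11, Klf12 and Klf13) out of 54532 genes in a deposited table of RNA sequencing counts. They were chosen by symbol, and each symbol had 1 row in the table. In microglia from retinas with oxygen-induced retinopathy (OIR), Klf2 and Klf10 rose, and Klf3, Klf7 and Klf12 fell. Klf4, Klf6, Klf9, Klf11 and Klf13 did not pass the test.

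The libraries were 8 from OIR retinas and 8 from retinas without it (nonOIR). All mice were at postnatal day 17 and carried Cx3cr1CreERT2 with a Rosa26-tdTomato reporter, and all received tamoxifen (5 µl at 21 mg/ml) under the skin at postnatal day 1, so the nonOIR mice share the Cre driver, the reporter and the drug. OIR is a model in which newborn mice breathe high oxygen, lose retinal capillaries, and then grow abnormal vessel tufts when back in room air. The sort gate kept cells with tdTomato and CD11b and a low amount of CD45, and dropped any with Ly6C or Ly6G. The reporter marks cells that used the Cx3cr1 promoter when the drug was given, which include brain-border macrophages beside microglia, so the label alone does not make a cell a microglial cell. Whether each library came from its own animal is not said in the labels, so p-values reflect the spread between these samples alone, part of which may be technical.

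Library totals lay between 13.6 M (nonOIR replicate 1) and 30.0 M (OIR replicate 3) gene counts, where M stands for mega, and the microglial genes Cx3cr1, P2ry12, Tmem119, Sall1, Siglech and Csf1r were detected throughout. Of these, CPM (counts per mega-count of the scaled library) of Tmem119 averaged 2797 ± 548 in OIR and 4570 ± 373 in nonOIR (SD, n = 8 each). A code in the labels puts replicates 1 to 5 of each group in lane 1 and replicates 6 to 8 in lane 2. On the first principal component (48.2% of the variance of 500 genes) the OIR library closest to nonOIR was replicate 1, and on the third (7.25%) it stood apart from all others. Values without it are given beside the calls.

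Kruppel-like factors bind DNA through 3 zinc fingers near the end of the protein, each held by 2 cysteines and 2 histidines around a zinc ion. They recognise GC-rich elements and CACCC boxes, and they differ mainly outside the fingers, where some recruit acetyltransferases, some the corepressor CtBP and some the corepressor SIN3. In endothelium and blood cells the family is known for control of quiescence, migration and inflammatory genes, and several members are early response genes.

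The coding DNA of the second finger shows how closely the members are related, so it is printed for each gene, from GENCODE M21 transcripts on GRCm38. Capitals mark the codons of the cysteines and histidines that hold the zinc. The members are ordered by the partner they are known to recruit, first Klf2, Klf4, Klf6 and Klf7 (acetyltransferases), then Klf3 and Klf12 (CtBP), then Klf9, Klf10, Klf11 and Klf13 (SIN3).
Klf2: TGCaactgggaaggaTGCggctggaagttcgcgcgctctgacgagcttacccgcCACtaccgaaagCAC
Klf4: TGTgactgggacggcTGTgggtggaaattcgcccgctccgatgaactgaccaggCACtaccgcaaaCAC
Klf6: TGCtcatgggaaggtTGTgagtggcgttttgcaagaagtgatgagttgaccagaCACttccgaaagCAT
Klf7: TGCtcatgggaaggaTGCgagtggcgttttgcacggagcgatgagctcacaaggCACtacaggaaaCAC
Klf3: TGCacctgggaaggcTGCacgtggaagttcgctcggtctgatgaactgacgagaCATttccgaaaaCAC
Klf12: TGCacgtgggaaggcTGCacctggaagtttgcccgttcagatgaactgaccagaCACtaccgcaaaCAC
Klf9: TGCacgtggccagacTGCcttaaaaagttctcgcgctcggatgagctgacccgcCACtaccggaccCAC
Klf10: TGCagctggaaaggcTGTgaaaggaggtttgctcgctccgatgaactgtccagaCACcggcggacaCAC
Klf11: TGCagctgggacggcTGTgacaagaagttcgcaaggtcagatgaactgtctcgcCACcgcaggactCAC
Klf13: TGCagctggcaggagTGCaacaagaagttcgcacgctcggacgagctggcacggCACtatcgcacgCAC

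Over the whole 243-base region that codes for the 3 fingers, identity between members ran from 57.2% to 81.1%. Klf6 and Klf7 were the closest pair (81.1%). Klf2 was closest to Klf4 (78.2%), Klf3 and Klf12 were closest to each other (78.2%), and so were Klf10 and Klf11 (76.1%). The nearest relative of Klf13 was Klf11 (73.7%), and that of Klf9 was Klf13 (72.8%). None of the 45 pairs shared an identical stretch of 50 bases, the read length, in any annotated transcript, so an error-free read of a member's annotated transcripts does not match another member.

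**Figure D1:**
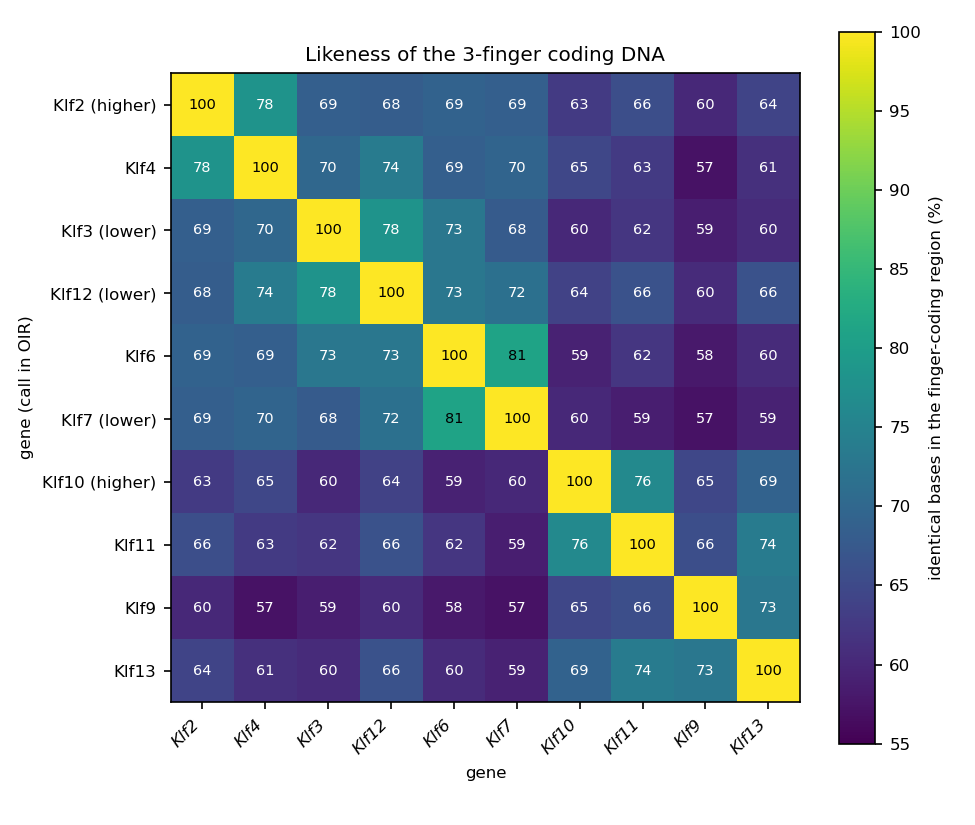
Each square gives the percentage of identical bases between 2 members over the 243-base finger-coding region, with genes on both axes and the call in OIR beside each name. The blocks near the diagonal hold the closest pairs, such as Klf6 with Klf7 at 81.1% and Klf2 with Klf4 at 78.2%. In both of these pairs only 1 gene passed the test, while Klf3 and Klf12, also at 78.2%, both passed as lower.

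All 10 members passed the filter on low counts and were tested among 12496 genes with edgeR's quasi-likelihood test. At an adjusted p under 0.05, 5 of the 10 were called, against 10.9% of all tested genes: 2 were higher in OIR (6.39% of all tested genes) and 3 were lower (4.56%). The same 5 were called with each of the other scalings, with lane as a covariate and with DESeq2. In bulk libraries, a smaller share of cells that use a gene and less of its RNA per cell cannot be told apart.

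Klf10 showed the clearest difference between the groups. Its product, known as a TGF-beta-inducible early gene, recruits SIN3 and represses SMAD7 transcription. In OIR it ran from 50.8 to 74.8 CPM, with a median of 59.7 CPM, and in nonOIR from 19.98 to 45.2 CPM, with a median of 35.2 CPM. The lowest OIR library thus lay above the highest nonOIR library, a separation found in 2.02% of all tested genes and in no other member. Means were 61.7 ± 7.62 CPM in OIR and 34.9 ± 8.18 CPM in nonOIR (SD, n = 8 each), a log2 fold change of 0.82 with an SE of 0.14 (edgeR adjusted p = 0.00117). The rise was present in each lane, with a log2 fold change of 0.79 in lane 1 (edgeR adjusted p = 0.0370) and 0.92 in lane 2 (edgeR adjusted p = 0.00776).

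Klf2, which keeps endothelium and T cells quiescent and restrains inflammatory genes in myeloid cells, rose by about as much as Klf10. It ran from 36.0 to 88.5 CPM in OIR, with a median of 58.0 CPM, and from 23.5 to 43.9 CPM in nonOIR, with a median of 33.2 CPM. Every OIR library was above the nonOIR median, but the ranges overlapped, and the 3 lowest OIR values were those of lane 2. Means were 62.3 ± 22.4 CPM in OIR and 34.9 ± 7.56 CPM in nonOIR (SD, n = 8 each), a log2 fold change of 0.84 with an SE of 0.20 (edgeR adjusted p = 0.0119).

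Within lane 1, Klf2 averaged 75.8 ± 16.3 CPM in OIR and 38.1 ± 7.01 CPM in nonOIR (SD, n = 5 each), a log2 fold change of 1.00 (edgeR adjusted p = 0.00877). Within lane 2 it averaged 39.8 ± 3.37 CPM in OIR and 29.5 ± 5.62 CPM in nonOIR (SD, n = 3 each), a log2 fold change of 0.48 that did not pass (edgeR adjusted p = 0.117). The difference between the lanes was itself not called (edgeR interaction adjusted p = 0.383).

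Klf3 and Klf12, which repress transcription through CtBP, both fell. Klf3, the original "basic" member of the family, ran from 208 to 326 CPM in OIR, with a median of 262 CPM, and from 302 to 414 CPM in nonOIR, with a median of 343 CPM. All 8 OIR libraries lay below the nonOIR median, and the lane 2 libraries of OIR were the lowest of the 16. Its log2 fold change was -0.42 with an SE of 0.10 (edgeR adjusted p = 0.0119), from means of 260 ± 43.8 CPM in OIR and 347 ± 35.9 CPM in nonOIR (SD, n = 8 each).

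In lane 1 the Klf3 log2 fold change was -0.25, which did not pass (edgeR adjusted p = 0.133), and in lane 2 it was -0.68 (edgeR adjusted p = 0.00431). Klf3 had the lowest p of the family for a difference between lanes, and it did not pass adjustment over all genes (edgeR interaction adjusted p = 0.143).

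Klf12, first described as a repressor of the gene for the transcription factor AP-2 alpha, had the largest log2 fold change of the members. It ran from 1.26 to 9.72 CPM in OIR, with a median of 3.98 CPM, and from 7.37 to 13.4 CPM in nonOIR, with a median of 10.6 CPM. Apart from OIR replicate 2, the highest of its group, every OIR library was below every nonOIR library. Means were 4.80 ± 2.77 CPM in OIR and 10.4 ± 1.85 CPM in nonOIR (SD, n = 8 each), a log2 fold change of -1.11 with an SE of 0.31 (edgeR adjusted p = 0.0278). This call is the weakest of the 5, since leaving out OIR replicate 3, 4, 5 or 7 or nonOIR replicate 4 moved the edgeR adjusted p to between 0.0504 and 0.0543. Within lane 1 and lane 2 the log2 fold changes were -1.07 and -1.14, and neither passed (edgeR adjusted p = 0.121 and 0.168).

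Klf7, a regulator of neuronal differentiation that most tissues express, fell, while its closest relative Klf6 was not called. Klf7 ran from 15.7 to 29.3 CPM in OIR, with a median of 20.7 CPM, and from 23.6 to 46.6 CPM in nonOIR, with a median of 33.6 CPM. Apart from nonOIR replicate 1, the lowest of its group, every nonOIR library was above every OIR library. Means were 21.6 ± 4.92 CPM in OIR and 35.0 ± 6.78 CPM in nonOIR (SD, n = 8 each), a log2 fold change of -0.70 with an SE of 0.15 (edgeR adjusted p = 0.00687). In lane 1 alone it was -0.46 (edgeR adjusted p = 0.177) and in lane 2 alone -1.09 (edgeR adjusted p = 0.00623), with no call on the difference between lanes (edgeR interaction adjusted p = 0.275). Exons of Klf7 overlap those of Gm26649 and Gm13748 on the other strand over 3200 of 8131 bases. The kit does not mark strand, so reads there cannot be told apart, and these genes had 0 and 27 counts in all libraries together.

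**Figure D2:**
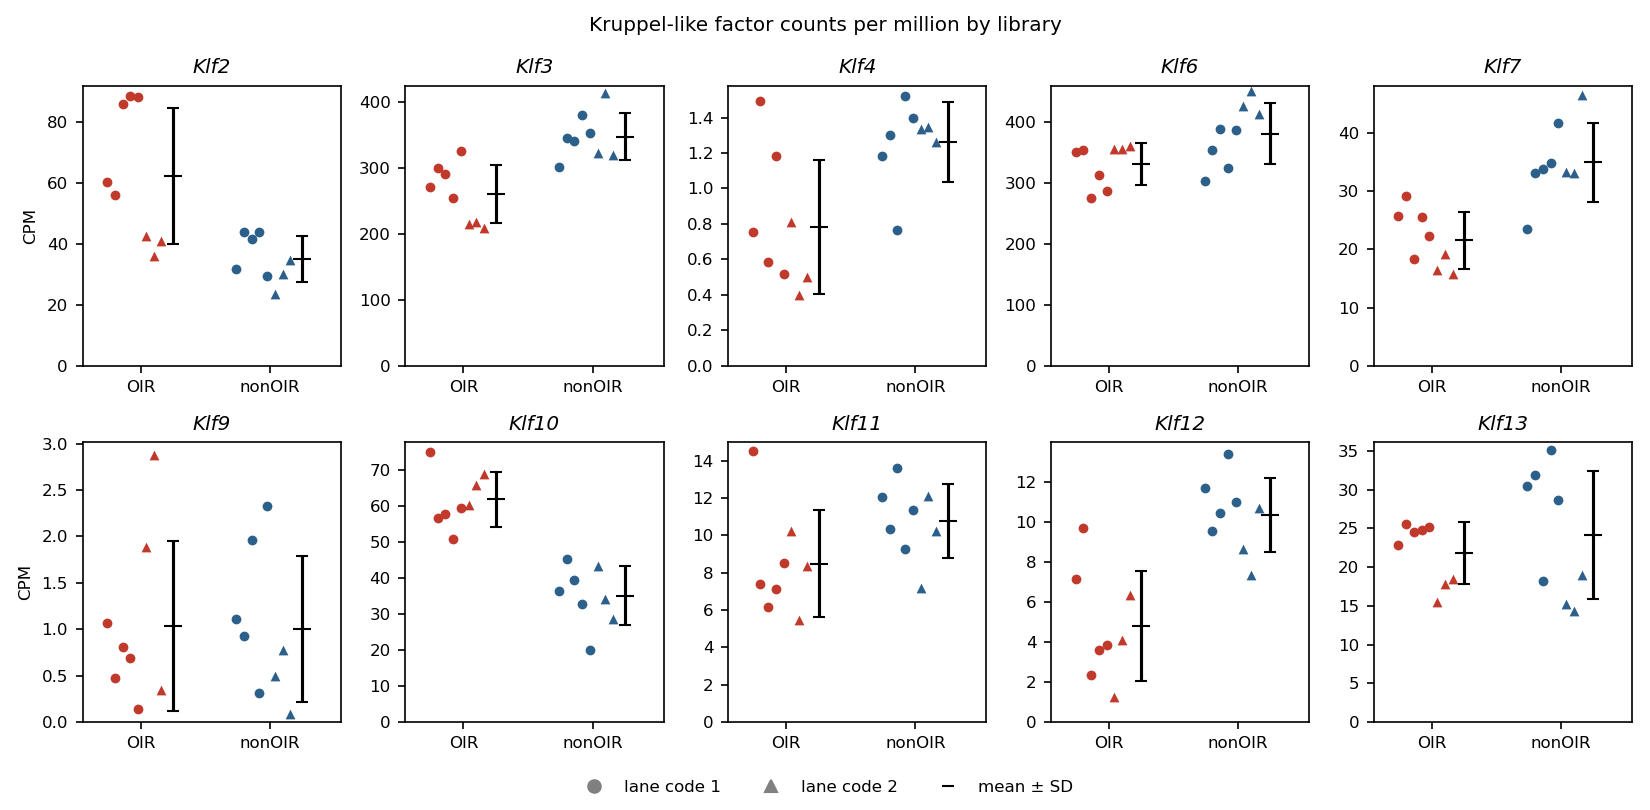
Each panel shows 1 Kruppel-like factor, with CPM on the vertical axis from 0, OIR left and nonOIR right. Symbols are libraries, with shape for the lane code, and bars are the mean and SD of 8 libraries. The Klf10 groups do not overlap, and the lane 2 libraries of OIR are the lowest of that group for Klf2 and Klf3.

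Without OIR replicate 1, the library that stood apart, the same 5 members were called. The log2 fold changes were then 0.85 for Klf2, 0.78 for Klf10, -0.42 for Klf3, -0.74 for Klf7 and -1.21 for Klf12, with edgeR adjusted p = 0.0135, 0.00178, 0.0135, 0.00515 and 0.0182 in that order. Lane 1 alone called 2 members (Klf2 and Klf10, against 3.39% of all tested genes), and lane 2 alone called 3 (Klf3, Klf7 and Klf10, against 15.9%). No member passed the test of a difference between lanes, which 0.496% of tested genes did. At an unadjusted p under 0.05, Klf3, Klf7 and Klf9 differed between lanes, against 13.1% of tested genes.

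In the authors' deposited table the same 5 members have an adjusted p under 0.05. The authors' deposited table gives log2 fold changes (OIR over nonOIR) of 0.79 for Klf10, 0.76 for Klf2, -0.39 for Klf3, -0.65 for Klf7 and -0.87 for Klf12. Of the other 5 members, Klf4 has the lowest adjusted p in the authors' deposited table (0.103).

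Klf6, an early response gene of many tissues, had the highest level of the members per kilobase and was not called. It ran from 275 to 361 CPM in OIR, with a median of 352 CPM, and from 303 to 450 CPM in nonOIR, with a median of 387 CPM. All OIR libraries were below the nonOIR median, yet the log2 fold change was only -0.20 with an SE of 0.09 (edgeR adjusted p = 0.170, unadjusted p = 0.0381). With lane as a covariate the edgeR adjusted p was 0.0506, the closest that any alternative brought Klf6 to the threshold.

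Klf4, a regulator of endothelium, epithelium and macrophage polarisation and one of the pluripotency factors, had few reads, with 9 to 35 counts per library in OIR and 14 to 36 in nonOIR. It averaged 0.780 ± 0.378 CPM in OIR and 1.26 ± 0.225 CPM in nonOIR (SD, n = 8 each), and 7 of 8 OIR libraries were below the nonOIR median. The log2 fold change of -0.69 (SE 0.36) did not pass (edgeR adjusted p = 0.249).

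Klf9, which glucocorticoids and thyroid hormone induce in other tissues, had 4 to 65 counts per library in OIR and 2 to 60 in nonOIR. Its means were 1.04 ± 0.917 CPM in OIR and 0.999 ± 0.786 CPM in nonOIR (SD, n = 8 each), with a log2 fold change of 0.05 with an SE of 0.63 (edgeR adjusted p = 0.975). The SE leaves room for changes of either sign, and its sign turned with lane as a covariate.

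Klf11, the close relative of Klf10, averaged 8.49 ± 2.86 CPM in OIR and 10.8 ± 1.99 CPM in nonOIR (SD, n = 8 each), a log2 fold change of -0.34 with an SE of 0.20 (edgeR adjusted p = 0.296). OIR replicate 1 was the highest of the 16 libraries at 14.5 CPM, and without it the log2 fold change was -0.50 (edgeR adjusted p = 0.0750). Klf13, a regulator of the chemokine gene Ccl5 in T cells, averaged 21.8 ± 3.98 CPM in OIR and 24.1 ± 8.25 CPM in nonOIR (SD, n = 8 each), a log2 fold change of -0.14 with an SE of 0.19 (edgeR adjusted p = 0.715). For Klf13 the lanes differed more than the groups. Lane 1 averaged 24.6 ± 1.09 CPM in OIR and 28.9 ± 6.40 CPM in nonOIR (SD, n = 5 each), and lane 2 averaged 17.2 ± 1.56 CPM in OIR and 16.2 ± 2.43 CPM in nonOIR (SD, n = 3 each).

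**Figure D3:**
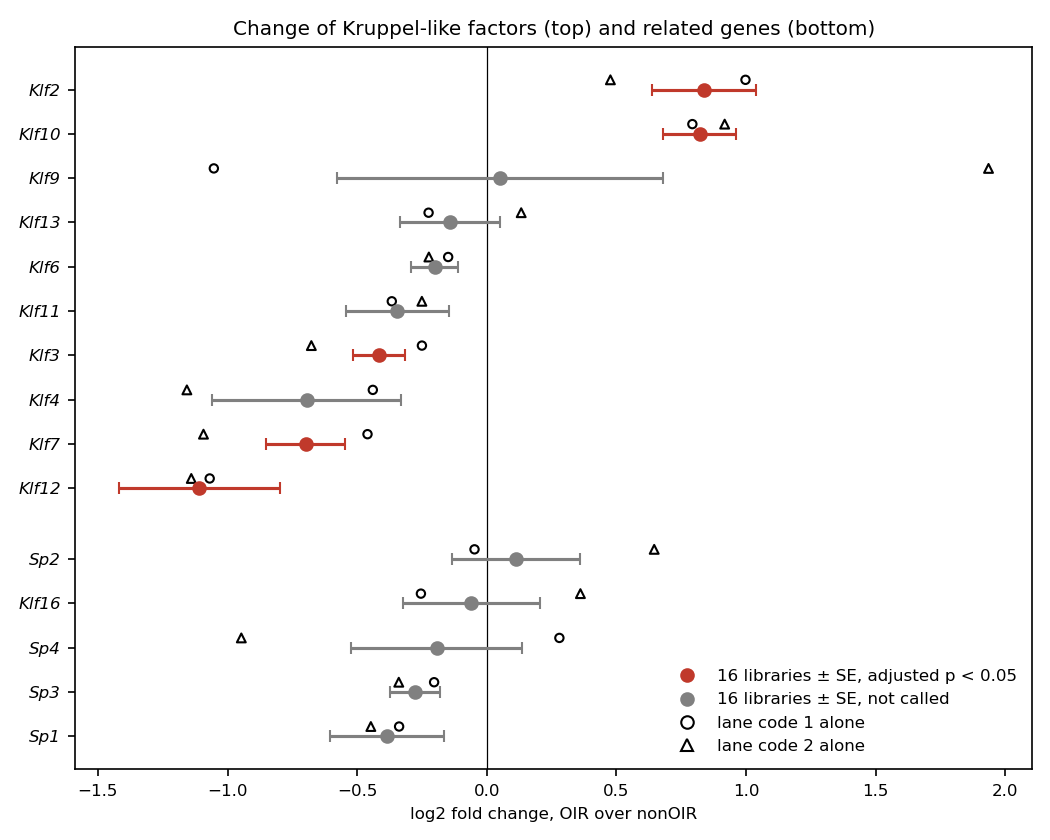
Log2 fold changes, OIR over nonOIR, on the horizontal axis, with the 10 members above and the related genes Klf16, Sp1, Sp2, Sp3 and Sp4 below. Filled points are the fit over 16 libraries with its SE (red where called), open circles lane 1 alone and open triangles lane 2 alone. Klf10 has nearly the same value in each lane (0.79 and 0.92), while Klf3 and Klf7 lie farther from 0 in lane 2 (-0.68 and -1.09).

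Levels were compared between genes as CPM per kilobase of merged exons. Klf6 stood first at 75.5 ± 7.93 CPM per kilobase in OIR and 86.7 ± 11.5 in nonOIR (SD, n = 8 each). Klf2 followed in OIR (33.7 ± 12.1 CPM per kilobase) ahead of Klf3 (23.2 ± 3.90), while in nonOIR the order was Klf3 (30.9 ± 3.19) and then Klf2 (18.9 ± 4.09). On this scale Klf2 was above Klf3 in 8 of 8 OIR libraries and in 0 of 8 nonOIR libraries. The order of this pair depends on the gene length used, since with the longest transcript that codes for all 3 fingers Klf3 was above Klf2 in all 16 libraries. The ratio of Klf2 to Klf3 counts does not depend on length, and it ran from 0.165 to 0.349 in OIR and from 0.0727 to 0.127 in nonOIR.

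After these came Klf10 at 14.8 ± 1.82 CPM per kilobase in OIR and 8.36 ± 1.96 in nonOIR (SD, n = 8 each). Klf7 (2.66 ± 0.605 in OIR and 4.31 ± 0.834 in nonOIR, CPM per kilobase) and Klf13 (2.90 ± 0.529 and 3.20 ± 1.10) followed, with Klf7 above Klf13 in 3 of 8 OIR and 5 of 8 nonOIR libraries. With the longest transcript Klf7 was above Klf13 in 0 of 8 OIR and 5 of 8 nonOIR libraries, so the order of this pair in OIR also depends on the length used. Klf11 and Klf12 came next, and Klf4 and Klf9 were lowest, at 0.256 ± 0.124 and 0.215 ± 0.191 CPM per kilobase in OIR. Klf4 was above Klf9 in 6 of 8 libraries of each group, so their order is not settled by these libraries. With merged exons 3 neighbouring pairs kept their order in all 16 libraries (Klf6 over Klf3, Klf2 over Klf10 and Klf11 over Klf12). With the longest transcript, Klf6 stayed over Klf3 in all 16, Klf2 was over Klf10 in 6 of 8 OIR and 7 of 8 nonOIR libraries, and Klf11 was over Klf12 in 8 of 8 OIR and 7 of 8 nonOIR libraries.

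Klf6 and Klf3 together supplied most reads of the 10 members. Klf6 held 43.0 ± 5.86% of them in OIR and 43.2 ± 3.70% in nonOIR, and Klf3 held 33.5 ± 4.04% in OIR and 39.4 ± 2.40% in nonOIR (SD, n = 8 each). The shares of Klf2 (8.00 ± 2.74% in OIR and 3.98 ± 0.905% in nonOIR) and Klf10 (8.00 ± 1.11% in OIR and 4.00 ± 1.01% in nonOIR) were alike in each group. The summed level of all 10 members was 774 ± 49.4 CPM in OIR and 880 ± 65.3 CPM in nonOIR (SD, n = 8 each).

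**Figure D4:**
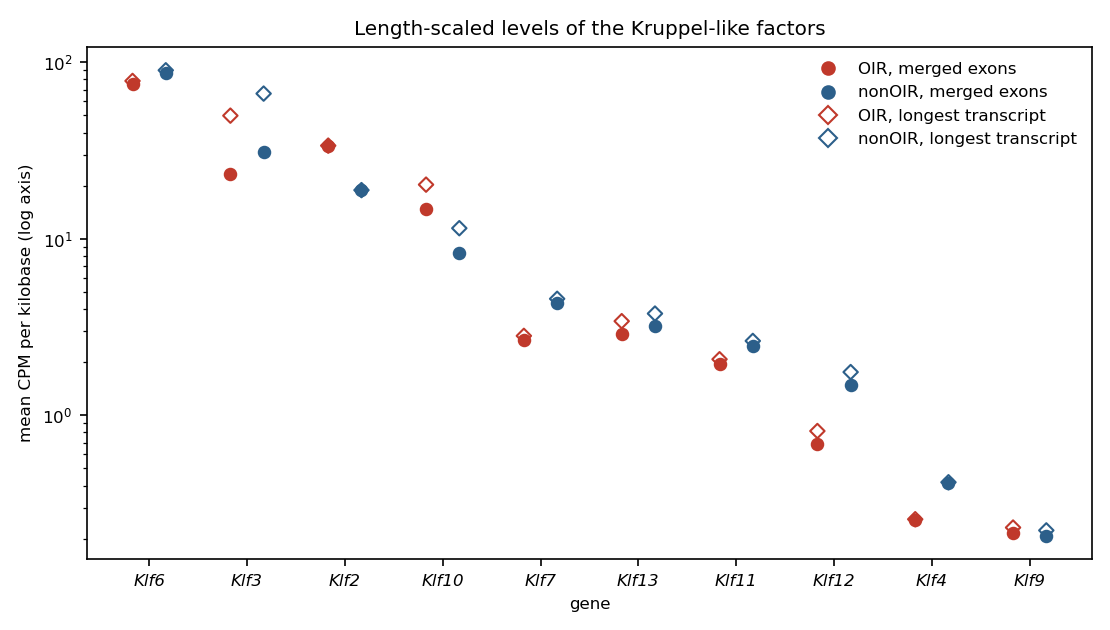
Mean CPM per kilobase over 8 libraries for each member on a log axis, with OIR left of nonOIR. Filled circles use merged exons and open diamonds the longest transcript that codes for the 3 fingers. Klf6 is highest and Klf4 and Klf9 are lowest with either length, and the order of Klf2 and Klf3 depends on the length.

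The called genes lie on separate chromosomes of GRCm38, per GENCODE M21. Klf2 spans chr8:72319033-72321656 on the plus strand and Klf3 chr5:64803388-64832901 on the plus strand. On the minus strand are Klf7 at chr1:64029447-64122282, Klf10 at chr15:38291463-38300706 and Klf12 at chr14:99870632-100284679. Promoters in the RefSeq table for GRCm38.p6 were matched for 9 of the 10 members (all but Klf10), and the 250 bases before the start were searched on both strands.

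The stretch before the start is printed for the 4 called members in that table, as far as it lies outside their annotated exons. It shows only part of the sequence elements that the rising gene and the falling genes carry. The part left out holds the 1 CACCC match of Klf2, at -19 from the start. It also holds some CACCC and GGGCGG matches of Klf3. Capitals mark the CACCC box, read as GGGTG on the other strand. They also mark the GC box GGGCGG and, in Klf2, a match to the binding motif of MEF2 factors. Capitals run together where matches overlap or adjoin. The RefSeq start of Klf12 lies 134.9 kb inside the GENCODE span of the gene and that of Klf7 893 bases inside, so these windows stand before internal starts and not before the outermost one. Klf2 is read from chr8:72318812-72319032 (plus strand), Klf3 from chr5:64803271-64803387 (plus strand), Klf7 from chr1:64121492-64121639 (minus strand) and Klf12 from chr14:100149797-100150046 (minus strand).
Klf2: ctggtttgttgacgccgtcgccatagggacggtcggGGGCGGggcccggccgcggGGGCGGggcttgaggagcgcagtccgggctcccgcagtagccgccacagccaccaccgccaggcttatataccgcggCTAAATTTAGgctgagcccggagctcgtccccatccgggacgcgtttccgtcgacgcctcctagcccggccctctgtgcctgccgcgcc
Klf3: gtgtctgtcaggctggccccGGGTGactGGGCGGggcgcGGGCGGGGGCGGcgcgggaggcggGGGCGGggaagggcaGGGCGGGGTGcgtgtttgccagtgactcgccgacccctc
Klf7: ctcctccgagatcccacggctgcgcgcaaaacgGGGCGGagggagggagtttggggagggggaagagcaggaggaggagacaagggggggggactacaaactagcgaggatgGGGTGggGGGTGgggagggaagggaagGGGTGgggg
Klf12: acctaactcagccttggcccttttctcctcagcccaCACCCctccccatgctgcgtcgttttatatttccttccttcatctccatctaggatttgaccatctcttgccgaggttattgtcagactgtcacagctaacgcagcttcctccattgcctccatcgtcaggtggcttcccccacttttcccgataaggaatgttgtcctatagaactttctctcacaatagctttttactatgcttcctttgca

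A CACCC box, the element that Kruppel-like factors bind, was found in 6 of 9 member promoters and in 52.0% of all 32851 promoters of the table. GGGCGG was in 7 of 9 member promoters, against 32.7% of all. The member windows were also richer in G and C, at 59.2% to 78.4% apart from Klf12 (48.0%), beside a median of 52.4% over all promoters. The part of this base composition in the GGGCGG count was not tested. Klf3 had 6 GGGCGG and 5 CACCC matches in its 250 bases, more of each than any other member, while Klf12 had 0 GGGCGG and 1 CACCC. The MEF2 motif was found in the Klf2 promoter only among the 9, at -118, and in 2.92% of all promoters. CCAAT was in 4 of 9 (33.8% of all), CACGTG in 3 of 9 (6.02%), TGACGTCA in 0 of 9 (1.55%) and the CArG box, the serum response element, in 0 of 9 (1.47%). These matches describe the letters in these windows and do not show binding.

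Of 16 other genes of the same family and of the related SP family, 5 passed the filter on low counts (Sp1, Sp2, Sp3, Sp4 and Klf16), and edgeR called 0 of them, against 10.9% of all tested genes. At an unadjusted p under 0.05 there was 1, Sp3, and DESeq2 called 0. Sp3, which binds the same GC boxes, averaged 89.3 ± 9.43 CPM in OIR and 108 ± 16.0 CPM in nonOIR (SD, n = 8 each), with all OIR libraries below the nonOIR median (log2 fold change -0.28, SE 0.10, edgeR adjusted p = 0.0742). With lane as a covariate the edgeR adjusted p of Sp3 was 0.0429. The OIR libraries held 40 counts of Klf1, the erythroid member, and the nonOIR libraries 27. For Klf15 the sums were 54 in OIR and 33 in nonOIR, and for Klf5 they were 5 in OIR and 1 in nonOIR. Sp6 was at 0 throughout, which for counting error alone leaves room for 3 counts per library.

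Genes that act above, beside or below these factors were read from 7 lists. Over the lists 17 of 85 tested genes were called, 8 higher and 9 lower in OIR, against 10.9% of all tested genes. The counts of each list can be read against that share, with 6.39% called as higher and 4.56% as lower, against 25.0% of all tested genes at an unadjusted p under 0.05 and against 12.7% called among the genes that DESeq2 tested. The MEKK3-MEK5-ERK5 kinase cascade, which the CCM complex restrains, switches on Klf2 and Klf4 through MEF2 factors in endothelium. Of 11 tested genes of this axis edgeR called 0 as higher and 1 as lower (4 at an unadjusted p under 0.05, and 2 by DESeq2), near the 10.9% over all tested genes, with a median log2 fold change of -0.18, beside -0.03 over all tested genes. Mef2c, a MEF2 factor, was the gene that fell (490 ± 65.7 CPM in OIR and 594 ± 43.4 CPM in nonOIR, SD, n = 8 each, log2 fold change -0.28, edgeR adjusted p = 0.0361). That call was kept on leaving out OIR replicate 1, 2 or 5 or nonOIR replicate 3 or 8, and it was lost when any other library was left out (edgeR adjusted p of up to 0.0793). It was also lost with scaling by library size alone, without the filter on low counts and in each lane alone. Krit1, a subunit of the CCM complex, had a log2 fold change of -0.35 and did not pass (edgeR adjusted p = 0.0529), although it did without OIR replicate 6 or nonOIR replicate 3, 4 or 5 (lowest edgeR adjusted p = 0.0412).

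Among 13 cofactors and turnover enzymes of these factors, edgeR called 1 as higher and 0 as lower (5 at an unadjusted p under 0.05, and 3 by DESeq2), beside 10.9% called over all tested genes, with a median log2 fold change of 0.12. Sin3b, a scaffold of the SIN3 corepressor, rose (136 ± 25.5 CPM in OIR and 102 ± 10.2 CPM in nonOIR, SD, n = 8 each, log2 fold change 0.41, edgeR adjusted p = 0.0173). The CtBP genes did not pass, with log2 fold changes of 0.25 for Ctbp1 and -0.25 for Ctbp2 (edgeR adjusted p = 0.0899 and 0.0930), although Ctbp1 did without OIR replicate 1 (edgeR adjusted p = 0.0415). Wwp1, a ubiquitin ligase of Klf2, had a log2 fold change of 0.62 (edgeR adjusted p = 0.0766), and it passed without OIR replicate 3 or 5 (lowest edgeR adjusted p = 0.0261).

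Of 5 tested genes described elsewhere as targets of KLF2 or KLF4, edgeR called 2 as higher and 0 as lower, beside 6.39% and 4.56% of all tested genes. At an unadjusted p under 0.05 there were 2, and DESeq2 called 2. A part of Klf2 or Klf4 in these values was not tested. S1pr1, the sphingosine-1-phosphate receptor that KLF2 activates in T cells, ran from 292 to 551 CPM in OIR and from 166 to 265 CPM in nonOIR (log2 fold change 0.78, edgeR adjusted p = 0.00144). Its groups did not overlap, as was so for 2.02% of all tested genes. Cdkn1a, the cell cycle inhibitor p21, rose (43.6 ± 17.0 CPM in OIR and 16.4 ± 6.32 CPM in nonOIR, SD, n = 8 each, log2 fold change 1.41, edgeR adjusted p = 0.00158). Its rise differed between the lanes, at 2.60 in lane 2 and 0.70 in lane 1 on the log2 scale (edgeR interaction adjusted p = 0.00701). The S1pr1 rise was also larger in lane 2 (1.13, against 0.57 in lane 1), with no call on the difference (edgeR interaction adjusted p = 0.311). Klf2 itself had its smaller log2 fold change in lane 2. Mrc1, Arg1 and Edn1 did not pass, and the other 6 listed genes were below the filter.

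Genes of TGF-beta signalling, which induces Klf10 and Klf11, gave 0 higher and 2 lower calls by edgeR among 14 tested, beside 6.39% and 4.56% of all tested genes. There were 4 at an unadjusted p under 0.05 and 2 called by DESeq2, and the median log2 fold change was -0.23. Tgfbr1, the type I receptor, fell to 2261 ± 406 CPM in OIR, against 3370 ± 736 CPM in nonOIR (SD, n = 8 each, log2 fold change -0.58, edgeR adjusted p = 0.00721). Smad4, the shared signal carrier, had a log2 fold change of -0.30 (edgeR adjusted p = 0.0369). This call was kept on leaving out OIR replicate 1 or nonOIR replicate 3, 4 or 5 and lost when any other library was left out (edgeR adjusted p of up to 0.0818). It was also lost with scaling by library size alone, without the filter on low counts and in each lane alone. Smad2, a receptor-activated partner of Smad4, passed only without OIR replicate 1 among the single omissions (edgeR adjusted p = 0.0178), and with all libraries its log2 fold change was -0.22 (edgeR adjusted p = 0.104). Smad7, the inhibitor that Klf10 represses in other cells, averaged 43.6 ± 7.50 CPM in OIR and 53.5 ± 12.4 CPM in nonOIR and did not pass (log2 fold change -0.29, edgeR adjusted p = 0.219); it was looked up after its value was seen.

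Glucocorticoid signalling, which induces Klf9, gave 2 genes that rose and 4 that fell among 10 tested (6.39% and 4.56% of all tested genes). The median log2 fold change was -0.42. At an unadjusted p under 0.05 there were 6 (25.0% of all tested genes), and DESeq2 called 6 (12.7% of all). Nr3c1, the glucocorticoid receptor, fell (176 ± 23.1 CPM in OIR and 234 ± 24.4 CPM in nonOIR, SD, n = 8 each, log2 fold change -0.41, edgeR adjusted p = 0.00601). Sgk1, a kinase that the receptor induces, ran from 857 to 1445 CPM in OIR and from 1504 to 2115 CPM in nonOIR, without overlap (log2 fold change -0.64, edgeR adjusted p = 0.000597). Tsc22d3 and Errfi1 also fell, the Errfi1 call lost without OIR replicate 6 (edgeR adjusted p = 0.0529). The Errfi1 call was also lost without the filter on low counts and in each lane alone. The metallothionein genes Mt1 and Mt2, which zinc and other metals also induce, were the 2 that rose, with log2 fold changes of 0.96 and 1.395 (edgeR adjusted p = 0.000467 and 0.00457), and the rise of Mt1 was larger in lane 2 (edgeR interaction adjusted p = 0.0305). Like Sgk1, Mt1 and Mt2 did not overlap between groups, a separation found in 2.02% of all tested genes.

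Klf9 and Klf10 are counted as clock-controlled genes in liver. Of 15 clock genes tested, a list that holds neither of them, edgeR called 0. At an unadjusted p under 0.05 there were 5 (25.0% of all tested genes), and DESeq2 called 1 (12.7% of all). The median log2 fold change of this list was -0.38, and 13 of the 15 values were below 0, as were 53.5% of all tested genes. The lowest p in the list was that of Hlf (log2 fold change -1.71, edgeR adjusted p = 0.0955), which passed without OIR replicate 1 (edgeR adjusted p = 0.0458), as Nr1d2 did without nonOIR replicate 4 (edgeR adjusted p = 0.0183).

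Immediate early genes, a class to which Klf2, Klf4, Klf6 and Klf10 are often counted, moved in both directions, with 3 that rose and 2 that fell among 19 tested (6.39% and 4.56% of all tested genes) and a median log2 fold change of -0.04. At an unadjusted p under 0.05 there were 8, and DESeq2 called 7. Egr1, Ier3 and Atf3 rose and Btg2 fell without overlap between groups, a separation found in 2.02% of all tested genes. Egr1, a zinc finger factor induced by growth factors, ran from 21.0 to 37.3 CPM in OIR and from 2.96 to 18.4 CPM in nonOIR (log2 fold change 1.34, edgeR adjusted p = 0.00298). Ier3 and Atf3, which marks stress responses, had log2 fold changes of 1.34 and 1.14 and were called at edgeR adjusted p = 0.000170 and 0.000436. Btg2, an antiproliferative gene, and Jun fell, with log2 fold changes of -0.68 and -0.44 (edgeR adjusted p = 0.00209 and 0.00809). Fos, Junb, Zfp36 and Myc did not pass. The summed level of the list was 737 to 1000 CPM in OIR, with a median of 831 CPM, and 844 to 1093 CPM in nonOIR, with a median of 956 CPM.

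**Figure D5:**
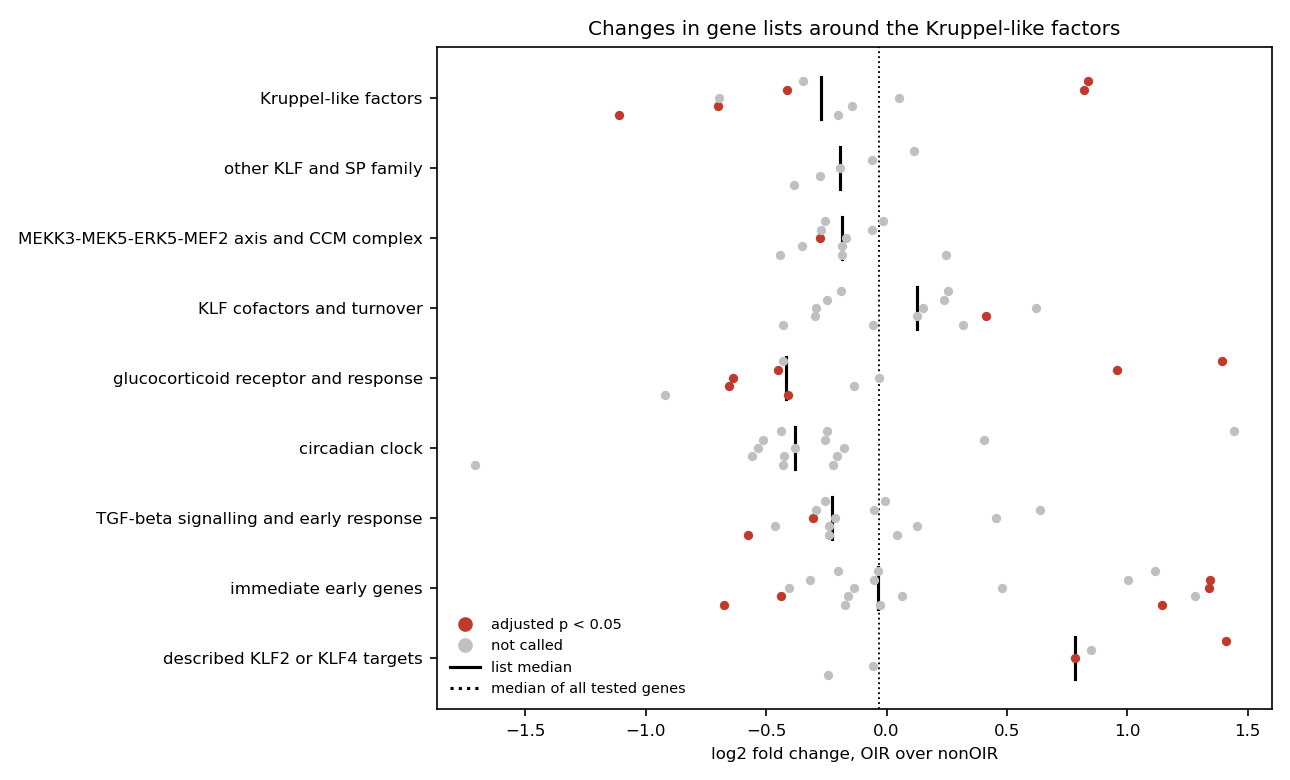
Log2 fold changes, OIR over nonOIR, of the tested genes of each list (points, red where called), with the list median as a black bar and the median of all tested genes (-0.03) as a dotted line. The clock and glucocorticoid lists have the lowest medians (-0.38 and -0.42), and of these only the glucocorticoid list holds called genes.

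Markers of other cell types were read beside the members, and their part in the members' changes was not tested. Some moved with the groups, among them markers of cell division, erythroid cells, neurons and Muller glia. With all 16 libraries edgeR called no endothelial or border macrophage marker. Endothelium, where Klf2 and Klf4 are high, had 3 of 10 markers above the filter and 0 called by edgeR (0 at an unadjusted p under 0.05 and 0 by DESeq2). The markers summed to 9.13 to 37.9 CPM in OIR, with a median of 25.6 CPM, and 21.2 to 42.8 CPM in nonOIR, with a median of 37.7 CPM. Most of the sum was Pecam1, which myeloid cells also use (18.2 ± 9.98 CPM in OIR and 27.8 ± 6.65 CPM in nonOIR, SD, n = 8 each). Rarer endothelial genes went both ways. Cdh5 was at 1.37 ± 0.845 CPM in OIR and 0.695 ± 0.769 CPM in nonOIR, and Vwf at 0.474 ± 0.650 CPM in OIR and 0.110 ± 0.245 CPM in nonOIR. Kdr was at 4.41 ± 3.21 CPM in OIR and 5.44 ± 2.10 CPM in nonOIR, and Flt1 was nearly level (0.443 ± 0.626 and 0.422 ± 0.466 CPM). Tie1 had 46 counts in all OIR libraries together and 0 in nonOIR, and Cldn5 had 9 in OIR and 6 in nonOIR. Emcn had 2 counts in OIR and 58 in nonOIR, and Erg had 3 in OIR and 7 in nonOIR. Within OIR the sum of the endothelial markers was lower in lane 2 (13.7 ± 4.27 CPM, n = 3) than in lane 1 (32.2 ± 6.23 CPM, n = 5), as was Klf2.

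Cell division markers, of which 7 of 8 rose, summed to 76.7 to 414 CPM in OIR, with a median of 243 CPM, and 28.02 to 56.3 CPM in nonOIR, with a median of 37.9 CPM. Border macrophage markers (5 of 6 tested, 0 called by edgeR, 0 at an unadjusted p under 0.05 and 0 by DESeq2) summed to 6.38 to 381 CPM in OIR, with a median of 141 CPM, and 13.6 to 209 CPM in nonOIR, with a median of 69.8 CPM. In OIR they averaged 364 ± 24.6 CPM in lane 2 and 86.4 ± 59.1 CPM in lane 1, so the libraries with the lowest Klf2 and Klf3 in OIR had the highest summed level of border macrophage markers. In nonOIR they averaged 78.5 ± 74.0 CPM in lane 2 and 87.3 ± 72.0 CPM in lane 1, so the groups lay apart in lane 2. Of these markers, Mrc1 was called as higher in lane 2 alone (log2 fold change 1.84, edgeR adjusted p = 0.0326). Erythroid markers (2 of 6 tested, both higher) summed to 1.88 to 293 CPM in OIR, with a median of 97.9 CPM, and 0 to 28.6 CPM in nonOIR, with a median of 1.09 CPM. Neuron markers (5 of 5 tested, 2 lower) summed to 6.12 to 25.7 CPM in OIR, with a median of 13.4 CPM, and 17.03 to 49.2 CPM in nonOIR, with a median of 30.5 CPM. Muller glia and astrocyte markers (3 of 6 tested, 1 lower by edgeR and 3 by DESeq2) summed to 237.5 to 361 CPM in OIR, with a median of 265 CPM, and 329.5 to 393 CPM in nonOIR, with a median of 371 CPM. Most of this sum was Glul, the marker that edgeR called, which was 227 ± 31.0 CPM in OIR and 284.5 ± 20.7 CPM in nonOIR (SD, n = 8 each). Microglial markers (9 of 9 tested, 3 lower) summed to 29910 to 54050 CPM in OIR, with a median of 46850 CPM, and 54800 to 68250 CPM in nonOIR, with a median of 58850 CPM. In OIR they averaged 32930 ± 3316 CPM in lane 2 and 49500 ± 3290 CPM in lane 1. Among them, P2ry12 fell along with Tmem119, with log2 fold changes of -0.78 and -0.71 (edgeR adjusted p = 0.000617 and 0.000550). T and NK cell markers summed to 0 CPM in every OIR library and to at most 0.0895 CPM in nonOIR, with Cd3e, Cd3d, Nkg7 and Gzma at 0 in all 16.

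The genes whose levels followed those of the called members most closely from library to library were found by a distance that takes the group difference out first. It is the mean absolute difference of group-centred log2(CPM + 1) values, scaled to an SD of 1, over 16 libraries and among 7809 genes (7810 for Klf12) that averaged at least 10 CPM. Nearest to Klf2 was Il4ra, the interleukin-4 receptor alpha chain, at 0.243, against a median of 1.12 over all genes compared, followed by Prrc2b (0.306). Klf7 was nearest to Sdf4 (0.335), with Ifngr1 at 0.393, and Klf3 to Dbt (0.396), Kidins220 (0.408) and Kdm2a (0.415). The distances for Klf10 (Tmem18 at 0.505, Irs2 at 0.544 and Gpt2 at 0.551) and Klf12 (Nop14 at 0.504, Hnrnpr at 0.520 and Cd14 at 0.523) were larger. These libraries share lanes and depth, and the likeness is a description. Of the genes named here as near in pattern, Ifngr1 and Cd14 were themselves called between groups, each lower in OIR. Their log2 fold changes were -0.49 and -0.61, with an edgeR adjusted p of 0.000590 and 0.00124 in that order.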

How the data were processed

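The 16 libraries of sorted retinal microglia were made from 750 pg of RNA with SMARTer v4 (12 amplification cycles) and Nextera XT, a workflow that does not mark strand, and read from 1 end over 50 bases, per the labels' protocols. Amplified reads are not independent molecules, so a floor of 3 counts covers counting error only. Whole-number counts per gene were deposited by the authors, beside normalized signal columns that hold those counts over a constant for each library. The submitters' processing notes list STAR 2.6.0b-1, FastQC 0.72, DESeq2 2.11.40.2, featureCounts 1.6.2 and mm10, with no role or annotation named. A log2 fold change, its standard error, a Wald score and p-values for each gene were also deposited by the authors.

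The counts were the input of edgeR 4.0.16 under R 4.3.3. Genes passed filterByExpr, libraries were scaled by TMM, and glmQLFit (robust) with glmQLFTest gave two-sided p-values, adjusted by Benjamini-Hochberg over 12496 genes. Every edgeR adjusted p is from this kind of test. Those for a lane alone, lane as a covariate, the interaction or an omitted library came from separate fits. The SE is the log2 fold change over the root of the F statistic, CPM is the count per mega-count of the TMM-scaled library, and the biological coefficient of variation was 40.3%. The fit was tested on simulated data. Sequences came from GENCODE M21 and RefSeq GRCm38.p6. Libraries of a group differed beyond sampling noise (lowest chi-square 15.7 per gene), so all were kept as separate samples. Alternatives covered scaling, filters, lane, replicate number, DESeq2 1.42.0 and the omission of each library. A further alternative, the transcript length behind levels per kilobase, was chosen after seeing the data.

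The members and lists were chosen with earlier results of these data known. The rule for named genes took all 10 members, other family genes above the filter, up to 4 genes per list with the lowest p, the sort markers and the 3 genes nearest in pattern to each called member. Genes outside it (Smad7, Tsc22d3, Errfi1, Jun, Fos, Junb, Zfp36, Myc, Edn1, Klf1, Klf15, Klf5 and Sp6) were named after their values were seen. Of the sort markers, Cx3cr1 averaged 1760 ± 489 CPM in OIR and 2262 ± 542 CPM in nonOIR, Itgam 319 ± 94.5 CPM in OIR and 303 ± 76.8 CPM in nonOIR, and Ptprc 465 ± 130 CPM in OIR and 548 ± 105 CPM in nonOIR (SD, n = 8 each), with no call. Values of some single genes near in pattern or in the marker lists are not reported here.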

Additional observations from a re-analysis of the deposited data

Results flagged for a closer look

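Among the 10 members' values in the groups of 8 libraries, 1 library stood far from the rest of its group. Klf4 was at 0.764 CPM in nonOIR replicate 3, the lowest of that group, whose median was 1.32 CPM. Chance sets such a library apart in about 1 in 20 groups, and 20 groups were looked at. Klf4 had between 14 and 36 counts in each nonOIR library, and it was not called with or without this library.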

How the results depend on the processing

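The calls of Klf2, Klf3, Klf7, Klf10 and Klf12 were followed through 26 alternatives each, and 120 of 130 values kept the direction and the call. The other 10 kept the direction and lost the call: Klf2 in lane 2 alone, Klf3 and Klf7 in lane 1 alone, and Klf12 in each lane alone and without 5 libraries. The number of members called was 2 in lane 1 alone, 3 in lane 2 alone and 4 to 5 when libraries were left out in turn, beside 5. Over all genes it was 423 in lane 1 alone and 2159 with lane as a covariate, and 942 to 1555 when libraries were left out, beside 1368. Of the genes called, 58.3% were higher in OIR with TMM, 73.7% with library size alone (1020 higher and 364 lower) and 51.1% with upper-quartile scaling (675 and 647). The other family and SP genes had 1 call (Sp3) with the replicate block and 1 with lane as a covariate, and 0 whichever library was left out. The lists had 10 calls in lane 1 alone, and 15 to 20 when libraries were left out, beside 17.

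Replicate numbers did not pair the libraries (correlations of -0.02 to 0.44, 6 of 8 over 0.1, and 2 of 8 OIR libraries closest to their own number). With the replicate block 1679 genes and the same 5 members were called. Signs turned for genes that were not called. Klf9 moved to -0.0060 with lane as a covariate, -1.05 in lane 1 alone and between -0.35 and 0.36 when libraries were left out. Klf13 moved to 0.13, Klf16 to 0.36, Arg1 to 0.67 and Itgam to -0.066 in lane 2 alone. In lane 1 alone, Sp2 moved to -0.048 and Sp4 to 0.28. Klf16 moved to 0.018 with library size alone, and leaving out libraries moved Klf16 to between -0.16 and 0.036 and Arg1 to between -0.79 and 0.040. The cause was not tested. Klf4 and Klf9 had 2 to 65 counts per library, so their values carry the most counting error among the members.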
